A study of Homo sapiens with 36 samples.

Results

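The response to dexamethasone (dex) was measured in U2OS-GRα cells transfected with the control siRNA, using 6 of the 36 libraries of the series. U2OS is a human osteosarcoma line. The cells used here were stably transfected with the glucocorticoid receptor α (GR), so all groups carry an introduced receptor. The label of both groups is siNSsiNS, a control (non-targeting) siRNA given in both siRNA positions. At 48 h after transfection, 3 libraries received 100 nM dex and 3 received the same amount of ethanol (vehicle), each for 8 h. The series also holds 5 other siRNA conditions with the same 2 treatments, 3 libraries each: siHic5siNS, siCHD9siNS, siBRMsiNS, siCHD9siHic5 and siBRMsiHic5. Per the labels, the biological replicates were made on different days, and the dex and vehicle libraries with the same replicate number were compared as pairs. No members were selected by their values: all 15179 genes that passed the filter on low counts, of 15186 in the table, were compared.

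GR is a nuclear receptor that resides in the cytosol with chaperones until a glucocorticoid binds it. The bound receptor enters the nucleus and binds DNA, either at palindromic glucocorticoid response elements or through other transcription factors such as AP-1 and NF-κB. It is known for raising genes of feedback, metabolism and anti-inflammatory control, and for lowering cytokine and growth factor genes. In bone-lineage cells glucocorticoids are known for limiting growth and differentiation.

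The 6 libraries held 28.9 to 36.9 M counts, against 27.4 to 47.1 M over all 36. Levels are counts per M counts of the library (CPM) scaled by upper-quartile factors, and changes are log2 fold changes, dex against vehicle, with their standard error (SE) from edgeR's quasi-likelihood fit. A gene was called at a Benjamini-Hochberg adjusted p under 0.05 over all tested genes. The cells expressed the mesenchymal and bone-lineage genes VIM (1185 CPM with vehicle), COL1A1 (2034 CPM), SPARC (1412 CPM) and RUNX2 (51.0 CPM). Of 11 such markers 0 were called with dex, beside 2.5% of all tested genes. EPCAM (2.19 CPM), PECAM1 (1.20 CPM) and CD4 (1.84 CPM) were low, while the keratins KRT8 (296 CPM) and KRT18 (295 CPM) were not. The genes named by the siRNAs and GR itself did not pass the test with dex: TGFB1I1 (Hic-5) changed by 0.03 ± 0.10, CHD9 by 0.03 ± 0.09, SMARCA2 (BRM) by 0.29 ± 0.09 and NR3C1 (GR) by -0.12 ± 0.11.

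Of the 6 libraries, 2 stood apart from the others. In vehicle replicate 2, NR4A1, an immediate early nuclear receptor gene, was at 415 CPM, against 26.1 and 12.6 CPM in the other vehicle libraries and 17.4 to 41.2 CPM with dex. Vehicle replicate 3 held 5.46% of its counts on the ribosomal RNA gene RNA28S5, against 0.43% to 0.722% in the other 5 libraries. With that gene left out, an alternative added after the data were seen, 284 genes rose and 95 fell, the same counts as with it.

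With dex, 284 genes rose and 95 fell, which is 1.87% and 0.626% of the 15179 tested. The rises were the larger changes. Their median was 0.72 on the log2 scale (range 0.20 to 6.49, the highest fitted from 3 vehicle counts in ACTL8), and 105 of them were at least 1. The falls had a median of -0.41 (range -1.18 to -0.14), and 2 of them were at most -1. In these bulk samples a change in the mix of cells and a change per cell cannot be told apart. All 284 risen genes were higher in 3 of 3 pairs and all 95 fallen genes were lower in 3 of 3 pairs, a pattern seen in 20.7% and 15% of all tested genes. The dex libraries did not overlap the vehicle libraries for 237 of the 284 risen and 44 of the 95 fallen genes (8.16% of all tested genes). The median vehicle level was 13.3 CPM for risen genes, 63.9 CPM for fallen genes and 23.2 CPM for all. Of the risen genes, 40 (14.1%) lay under 1 CPM with vehicle, against 0 of the fallen genes and 7.14% of all. The filter kept genes above 1 CPM in at least 3 of the 36 libraries. A gene low with vehicle could pass it through dex libraries where it was high. These shares are therefore set in part by the filter.

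The falls rest on the pairing and on each pair more than the rises do. Without the replicate block the same test called 52 rises and 0 falls, with 380 genes at an unadjusted p under 0.05. DESeq2 with the block called 266 rises and 169 falls, so that 61.1% of its calls were rises against 74.9% in edgeR. When the pairs were left out in turn, the calls were 128 rises and 18 falls without replicate 1, 184 and 32 without replicate 2, and 175 and 56 without replicate 3. In all 3 of these fits 104 of the 284 rises and 6 of the 95 falls were called again. The 6 falls were MYH9, KCNN4, NR1D1, SERTAD4, AMPD2 and PLEKHG3, the last 2 chosen for this pattern after their values were seen.

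**Figure D1:**
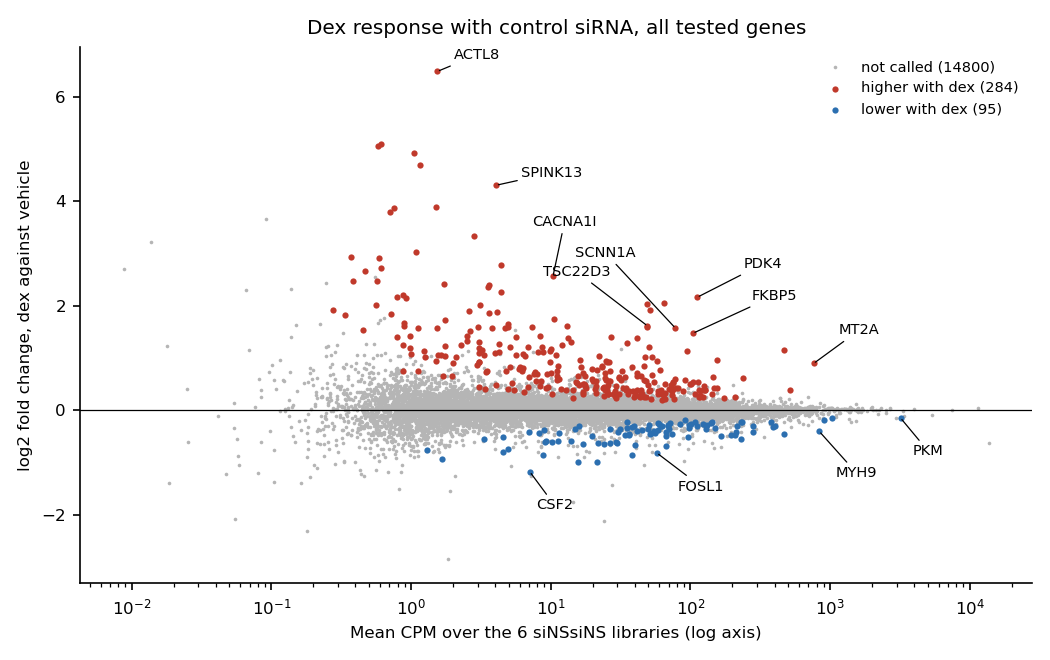
Each point is 1 of 15179 tested genes. The horizontal axis is the mean CPM over the 6 siNSsiNS libraries (log axis) and the vertical axis the log2 fold change, dex against vehicle; the 284 risen genes are red and the 95 fallen genes blue. Called rises reach 6.49 and occur at all but the highest levels, while the largest called fall is -1.18 (CSF2). Changes that were not called reach down to -2.85.

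Promoter sequence was compared with these calls. RefSeq promoters (GRCh38.p14, 250 bases before to 50 after the annotated start) were matched by gene identifier for 11787 tested genes, 214 of them risen and 73 fallen. The core of the GR element was searched as GNACANNNTGTNC, which reads the same on both strands. It occurred in 6 of 214 risen promoters (2.8%), in 0 of 73 fallen ones and in 27 of all 11787 (0.229%). The 6 genes were TXNIP, MAP3K6, SLAMF8, GPR1, EEF2K and OR7A5. The longer element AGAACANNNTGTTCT occurred in 0 of the 11787 windows. The AP-1 element, searched as TGACTCA and on the other strand as TGAGTCA, occurred in 10 risen promoters (4.67%), 7 fallen ones (9.59%) and 408 of all (3.46%). The promoters below are shown because they hold such a match and belong to genes that rose or fell; each line gives the 250 bases before the start, 5′ to 3′ on the gene's strand, with the match in capitals.
TXNIP: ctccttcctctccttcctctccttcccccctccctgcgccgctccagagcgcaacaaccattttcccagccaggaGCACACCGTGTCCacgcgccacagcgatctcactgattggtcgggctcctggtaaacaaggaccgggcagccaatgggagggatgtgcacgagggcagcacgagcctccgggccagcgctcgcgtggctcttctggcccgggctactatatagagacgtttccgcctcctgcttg
MAP3K6: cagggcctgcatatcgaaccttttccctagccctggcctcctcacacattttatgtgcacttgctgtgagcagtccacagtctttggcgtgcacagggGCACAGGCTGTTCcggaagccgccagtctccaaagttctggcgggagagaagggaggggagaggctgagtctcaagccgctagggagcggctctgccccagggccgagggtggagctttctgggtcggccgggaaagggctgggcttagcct
GPR1: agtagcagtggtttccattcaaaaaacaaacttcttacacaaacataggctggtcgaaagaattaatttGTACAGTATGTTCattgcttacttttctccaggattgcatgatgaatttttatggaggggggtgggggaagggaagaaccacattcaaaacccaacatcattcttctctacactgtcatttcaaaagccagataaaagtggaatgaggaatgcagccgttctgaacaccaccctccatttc
SLAMF8: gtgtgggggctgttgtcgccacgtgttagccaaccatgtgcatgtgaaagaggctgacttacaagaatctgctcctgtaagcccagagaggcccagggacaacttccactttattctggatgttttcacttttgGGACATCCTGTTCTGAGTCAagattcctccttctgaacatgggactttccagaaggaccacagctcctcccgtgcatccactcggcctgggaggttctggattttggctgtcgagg
SPINK13: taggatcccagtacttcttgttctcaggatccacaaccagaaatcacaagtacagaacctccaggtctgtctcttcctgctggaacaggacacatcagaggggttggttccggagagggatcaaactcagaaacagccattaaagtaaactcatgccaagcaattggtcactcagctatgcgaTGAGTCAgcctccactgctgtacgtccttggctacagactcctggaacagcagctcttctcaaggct
AMIGO2: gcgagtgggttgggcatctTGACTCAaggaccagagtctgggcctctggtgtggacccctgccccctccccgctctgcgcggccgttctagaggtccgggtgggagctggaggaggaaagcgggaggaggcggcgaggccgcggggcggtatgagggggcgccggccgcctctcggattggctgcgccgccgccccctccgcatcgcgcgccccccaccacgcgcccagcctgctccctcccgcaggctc
TNFSF15: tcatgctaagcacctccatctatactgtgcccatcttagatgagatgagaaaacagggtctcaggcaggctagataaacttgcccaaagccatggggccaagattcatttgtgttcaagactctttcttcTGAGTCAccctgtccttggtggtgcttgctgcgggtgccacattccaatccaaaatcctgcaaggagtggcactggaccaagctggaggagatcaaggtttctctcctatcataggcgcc

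These windows lie at chr1:145996580-145996829 (minus strand) for TXNIP, chr1:27366962-27367211 (minus) for MAP3K6, chr2:206213372-206213621 (minus) for GPR1, chr1:159826623-159826872 (plus) for SLAMF8, chr5:148268544-148268793 (plus) for SPINK13, chr12:47079952-47080201 (minus) for AMIGO2 and chr9:114792531-114792780 (minus) for TNFSF15. In TXNIP, which encodes an inhibitor of thioredoxin and of glucose uptake, the capitals mark the core GCACACCGTGTCC, which starts at -175 from the annotated start. MAP3K6 (GCACAGGCTGTTC at -152) and GPR1 (GTACAGTATGTTC at -181) also hold 1 core match. In SLAMF8 the core GGACATCCTGTTC at -116 is followed directly by the AP-1 match TGAGTCA at -103, so the capitals run over both. The capitals in SPINK13 (-67), AMIGO2 (-231) and TNFSF15 (-120) mark AP-1 matches. A match is a description of these letters, and binding was not measured. MAP3K6 rose by 0.47 ± 0.09 (edgeR adjusted p = 0.0043). SLAMF8 rose from a mean of 4.18 to 9.60 CPM, a log2 fold change of 1.22 ± 0.15. GPR1 rose from 4.32 to 8.82 CPM, or by 1.04 ± 0.23. SLAMF8 was also called without any 1 pair, MAP3K6 was not called without replicate 1 (adjusted p = 0.109), and GPR1 was called in none of the 3 fits that leave out a pair (adjusted p = 0.127, 0.11 and 0.083).

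Of 39 genes listed as glucocorticoid-induced, 37 were tested, 17 rose and 1 fell. That is 17 of 37 beside 1.87% of all tested genes, and the list's median was 0.54 beside 0.01 for all genes. The list was chosen with earlier results of these data known, so its count is a description. FKBP5 encodes an immunophilin co-chaperone that lowers the affinity of GR for its ligand. It stood at 60.7, 45.1 and 59.3 CPM in vehicle replicates 1 to 3 and at 181, 118 and 163 CPM with dex. Every dex library was above every vehicle library, and the log2 fold change was 1.47 ± 0.08 (adjusted p = 6.8e-09). TSC22D3, which encodes the anti-inflammatory protein GILZ, went from 26.3, 23.5 and 22.1 CPM to 94.5, 62.7 and 66.2 CPM, or 1.62 ± 0.10 (adjusted p = 1.7e-08). SCNN1A, a subunit of the epithelial sodium channel, went from 40.2, 43.6 and 34 CPM to 135, 111 and 104 CPM, or 1.57 ± 0.11. TIPARP, a mono-ADP-ribosyltransferase gene, went from 24, 29.7 and 19.1 CPM to 80.8, 78.5 and 59.8 CPM, or 1.60 ± 0.18. In these genes the groups did not overlap, and each was called in every alternative computed that tests it.

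Further members of the list rose. The transcription factor genes ZBTB16 (1.59 ± 0.20), KLF15 (2.40 ± 0.35) and CEBPD (0.85 ± 0.21) were among them. CEBPD was not called without replicate 1 (adjusted p = 0.269) or without replicate 3 (adjusted p = 0.248). KLF9 (0.54 ± 0.12), GLUL (1.28 ± 0.25), SLC19A2 (0.94 ± 0.15) and IGFBP1 (2.93 ± 0.53) also rose and were named after their values were seen. Of these, SLC19A2 was also called without any 1 pair. KLF9 (adjusted p = 0.276 and 0.129), GLUL (0.107 and 0.119) and IGFBP1 (0.0553 and 0.0902) were not called without replicate 1 or without replicate 3. IGFBP1, which encodes a binding protein for insulin-like growth factors, stayed under 1 CPM in all 6 libraries. AMIGO2, a cell adhesion gene also on this list, was the exception: it fell from 298, 219 and 301 CPM to 191, 173 and 192 CPM, by 0.54 ± 0.10 on the log2 scale (adjusted p = 0.0026). All 3 dex libraries lay below the lowest vehicle library, and without replicate 1 its adjusted p was 0.0624.

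DUSP1 and SGK1, classic GR targets, did not pass the test. DUSP1 encodes the phosphatase that switches off p38 and JNK. It was at 84.9, 234 and 73.8 CPM with vehicle and 138, 125 and 117 CPM with dex, a change of 0.16 with a 95% interval of -0.59 to 0.90. It was higher with dex in pairs 1 and 3 and lower in pair 2, where the vehicle library stood highest. SGK1, a kinase gene, showed 21.9, 46.0 and 17.4 CPM with vehicle and 40.9, 45.1 and 32.2 CPM with dex, a change of 0.57 with an interval of -0.03 to 1.17. Of the 21 tested anti-inflammatory feedback genes, 2 rose (TSC22D3 and RGS2) and 0 fell, beside 1.87% and 0.626% of all tested genes. RGS2, which encodes a regulator of G-protein signalling, rose by 0.68 ± 0.15 (adjusted p = 0.0201). Its call was lost when any 1 pair was left out (adjusted p = 0.182, 0.148 and 0.0621 without replicates 1, 2 and 3). NFKBIA, which encodes an inhibitor of NF-κB, was at 86.4, 209 and 61.4 CPM with vehicle and 155, 169 and 107 CPM with dex, and was not called.

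**Figure D2:**
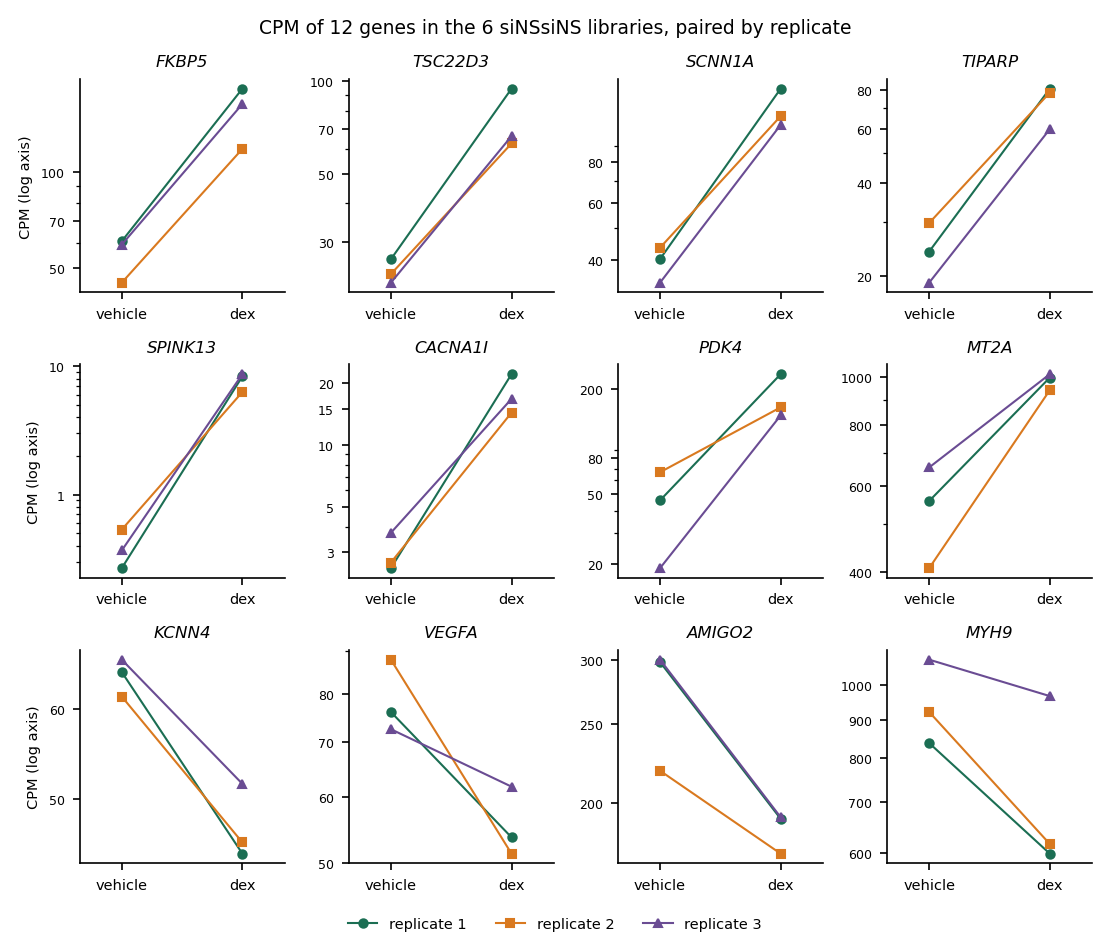
Each panel shows 1 gene in the 6 siNSsiNS libraries, with CPM on a log axis and a line joining the vehicle and dex library of 1 replicate. Lines rise in all 3 pairs for FKBP5, TSC22D3, SCNN1A, TIPARP, SPINK13, CACNA1I, PDK4 and MT2A and fall in all 3 for KCNN4, VEGFA, AMIGO2 and MYH9; the MYH9 groups overlap.

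The largest rises were in genes that were nearly silent with vehicle. ACTL8, an actin-like gene of testis, had 3 counts over the 3 vehicle libraries and 326 over the 3 dex libraries. At these depths the ratio was 100.2 with a 95% counting interval of 34 to 488, which covers counting error only. MORC1, a germ-cell gene, had 6 and 212 counts, and TF, the transferrin gene, had 8 and 233. SPINK13, a serine protease inhibitor gene whose promoter is shown above, was at 0.267, 0.534 and 0.367 CPM with vehicle and 8.34, 6.31 and 8.68 CPM with dex. That is a log2 fold change of 4.31 ± 0.44 (adjusted p = 1.9e-05), with every dex library above every vehicle library. EDN3, an endothelin gene, rose by 3.04 ± 0.39 and stayed under 3 CPM. TRIM49D2 (3.34 ± 0.36), TUBA3D (2.05 ± 0.18) and TUBA3E (2.04 ± 0.22) have close copies in the genome, so the copy their reads came from is uncertain. Of the 284 risen genes 8 (2.82%) were long non-coding RNA genes, against 5.72% of all tested genes.

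Channel genes of the plasma membrane changed in both directions. Of 18 tested ion channel and transporter genes, 4 rose and 1 fell, beside 1.87% and 0.626% of all tested genes. The list's median was 0.05. CACNA1I, which encodes a T-type calcium channel, went from 2.50, 2.67 and 3.73 CPM to 22.2, 14.4 and 16.8 CPM, or 2.56 ± 0.29. KCNA4, a voltage-gated potassium channel gene, rose by 2.42 ± 0.32 from under 1 CPM. SLC26A2, a sulfate transporter gene and the remaining rise, changed by 0.46 ± 0.08 and was not called without replicate 2 (adjusted p = 0.0535). KCNN4, a calcium-activated potassium channel gene, fell from 64.7, 61.5 and 66.3 CPM to 44.7, 45.7 and 51.5 CPM, by 0.44 ± 0.07 on the log2 scale (adjusted p = 0.00078). It is among the falls that kept their call without any 1 pair.

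Of 22 tested metabolic and atrophy genes 7 rose and 1 fell, beside 1.87% and 0.626% of all tested genes, with a median of 0.38. PDK4, which encodes a kinase that shuts off pyruvate dehydrogenase, went from 46.0, 66.7 and 18.8 CPM to 243, 157 and 141 CPM. All dex libraries were above all vehicle libraries, the change was 2.16 ± 0.50 and the adjusted p 0.0239. That call was lost without replicate 1 (adjusted p = 0.218) or replicate 3 (adjusted p = 0.192). TXNIP went from 85.3, 51.7 and 41.1 CPM to 172, 119 and 94.1 CPM, or 1.13 ± 0.21 (adjusted p = 0.0051). PIK3R1, which encodes the regulatory subunit of PI3 kinase, rose by 0.54 ± 0.09, and ACSL1, a long-chain fatty acid CoA ligase gene, by 0.57 ± 0.10. ACSL1 had an adjusted p of 0.086 without replicate 1. SLC2A3, which encodes the glucose transporter GLUT3, fell by 0.31 ± 0.06 on the log2 scale, and was not called without replicate 2 (adjusted p = 0.159) or 3 (adjusted p = 0.0696). NNMT, which encodes nicotinamide N-methyltransferase, had one of the 6 largest rises in level, from 537, 477 and 327 CPM to 695, 642 and 418 CPM (0.39 ± 0.06). Of 15 tested adipocyte differentiation genes 4 rose (KLF15, ZBTB16, CEBPD and ACSL1) and 0 fell, and all 4 also appear under the lists above.

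Metallothionein genes encode small metal-binding proteins and lie next to each other on chromosome 16. Of 8 tested metallothionein and zinc genes 4 rose and 0 fell, beside 1.87% and 0.626% of all tested genes. The list's median was 0.47. MT2A went from 558, 406 and 654 CPM to 999, 941 and 1015 CPM, or 0.89 ± 0.13 (adjusted p = 0.00042). MT1E went from 277, 240 and 363 CPM to 706, 597 and 641 CPM, or 1.16 ± 0.11 (adjusted p = 5.1e-06). MT1X rose by 1.02 ± 0.12 and MT1G by 0.79 ± 0.14, the latter with an adjusted p of 0.104 without replicate 1. The pseudogene MT1JP, named after its values were seen, rose by 1.14 ± 0.18. These genes are near-identical in sequence, so how reads were split among them is uncertain.

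Risen genes were also next to each other in the order of tested genes outside this family. Of 283 risen genes with a place on the RefSeq chromosomes, 38 (13.4%) had another risen gene as the next tested gene, against 3.69% of all 15103 placed genes. For the fallen genes it was 8 of 95 (8.42%) against 1.25%. Both counts include overlapping genes, such as TG with SLA among the rises and PLEKHG3 with SPTB among the falls. They also include neighbours of the same gene family, NUDT10 with NUDT11 among the rises and RFPL4A with RFPL4AL1 among the falls. The risen count also includes the metallothionein genes above, and the part played by shared reads was not tested. FKBP5 (chr6:35573590-35728583) was followed by LOC285847 (2.02 ± 0.29) and ARMC12 (1.42 ± 0.23). LOC285847 overlaps both FKBP5 and ARMC12. Whether the counting used strand is not given in the sources used here, so their reads cannot be told apart. ZBTB16 adjoined NNMT on chromosome 11, EDN3 adjoined PHACTR3 (1.92 ± 0.43) on chromosome 20, and CPNE7 (1.38 ± 0.22) adjoined DPEP1 (1.88 ± 0.26) on chromosome 16. PHACTR3, which encodes a regulator of protein phosphatase 1 and actin, had an adjusted p of 0.208 without replicate 1 and 0.176 without replicate 3. CD163 (2.20 ± 0.33) adjoined NANOG (1.57 ± 0.29), and KRT6A (1.84 ± 0.45) adjoined KRT5 (1.06 ± 0.26). Adjoining here means next among the tested genes at any distance, so untested genes may lie between. For example, CD163 ends at chr12:7503777 and NANOG starts at chr12:7789402. NANOG was not called without replicate 3 (adjusted p = 0.11), and KRT6A was not called without any 1 pair (adjusted p = 0.188, 0.246 and 0.0978). Apart from FKBP5, ZBTB16, NNMT, EDN3, PHACTR3 and KRT5, these neighbours were named after their values were seen.

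KRT5 and KDR are on the marker lists of other cell types, epithelial and endothelial. KRT5, a basal keratin gene, rose from 1.40, 1.13 and 0.678 CPM to 2.51, 2.17 and 1.89 CPM and lost its call without any 1 pair (adjusted p = 0.141, 0.130 and 0.224). KDR, which encodes a receptor for VEGF, rose from 1.34, 2.63 and 0.649 CPM to 10.8, 5.94 and 4.95 CPM, or 2.27 ± 0.39 (adjusted p = 0.0025). Without replicate 1 its adjusted p was 0.0856. The other 7 of 8 endothelial and 6 of 7 epithelial markers tested were not called. Over all tested genes 1.87% rose and 0.626% fell, so lists this short would hold few calls at those shares. The summed CPM of the 8 endothelial markers was 14.5 to 18.3 with vehicle and 18.8 to 26.8 with dex, and that of the 7 epithelial ones 510 to 757 and 500 to 646. Of the 5 haematopoietic markers tested, 0 were called (sums 11 to 15 and 10.6 to 13.7 CPM). No tested marker of these lists was at 0 CPM, and their part in the result was not tested.

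Of 18 tested clock genes 3 rose and 1 fell, beside 1.87% and 0.626% of all tested genes. In this list 14 genes were not called and the median was -0.05. PER1, a repressor of the clock and a GR target, was at 92.8, 185 and 58.9 CPM with vehicle and 220, 217 and 155 CPM with dex. The groups overlapped, as vehicle replicate 2 was above dex replicate 3. The change was 0.95 ± 0.25 (adjusted p = 0.0473), with an adjusted p of 0.353 without replicate 1, 0.304 without replicate 3 and 0.056 with TMM factors. NFIL3, a repressor gene, rose by 0.37 ± 0.06 and CRY2, a cryptochrome gene, by 0.30 ± 0.07. CRY2 had an adjusted p of 0.143 without replicate 1 and 0.198 without replicate 3. NR1D1, which encodes the repressor REV-ERBα, fell from 44.1, 37.5 and 24.2 CPM to 31.1, 24.3 and 14.8 CPM, by 0.61 ± 0.11 on the log2 scale. NR1D1 kept its call without any 1 pair. It overlaps THRA, whose reads cannot be told apart from it without strand.

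Growth and development genes gave single calls, where 1.87% of all tested genes rose and 0.626% fell. CCND3, a cyclin gene of G1, rose by 0.55 ± 0.07 (adjusted p = 0.00026) and was the 1 call among 16 tested G1 genes. Among 26 replication and mitosis genes 0 were called by edgeR, with log2 fold changes from -0.09 to 0.12. Of 10 tested osteoblast and bone genes 1 rose and 1 fell. MSX2, a homeobox gene of skeletal development, changed by 0.56 ± 0.14 and TNFRSF11B, which encodes the decoy receptor osteoprotegerin, by -0.65 ± 0.16. MSX2 lost its call without replicate 1 (adjusted p = 0.367), without replicate 3 (adjusted p = 0.271) or with TMM factors (adjusted p = 0.0581). TNFRSF11B lost it without any 1 pair (adjusted p = 0.221, 0.0969 and 0.221). Of 22 tested WNT pathway genes NKD1, an inhibitor of WNT signalling, rose by 0.92 ± 0.15 and LGR5, a receptor for R-spondins, fell by 0.59 ± 0.13 on the log2 scale. LGR5 had an adjusted p of 0.238 without replicate 2 and 0.0986 without replicate 3. Of 20 p53 target genes SESN1, a sestrin gene, rose by 0.33 ± 0.07, with an adjusted p of 0.0685 without replicate 1 and 0.281 without replicate 2. The interferon-stimulated, unfolded protein response, cholesterol synthesis and cytosolic ribosomal protein lists had 0 calls each by edgeR.

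**Figure D3:**
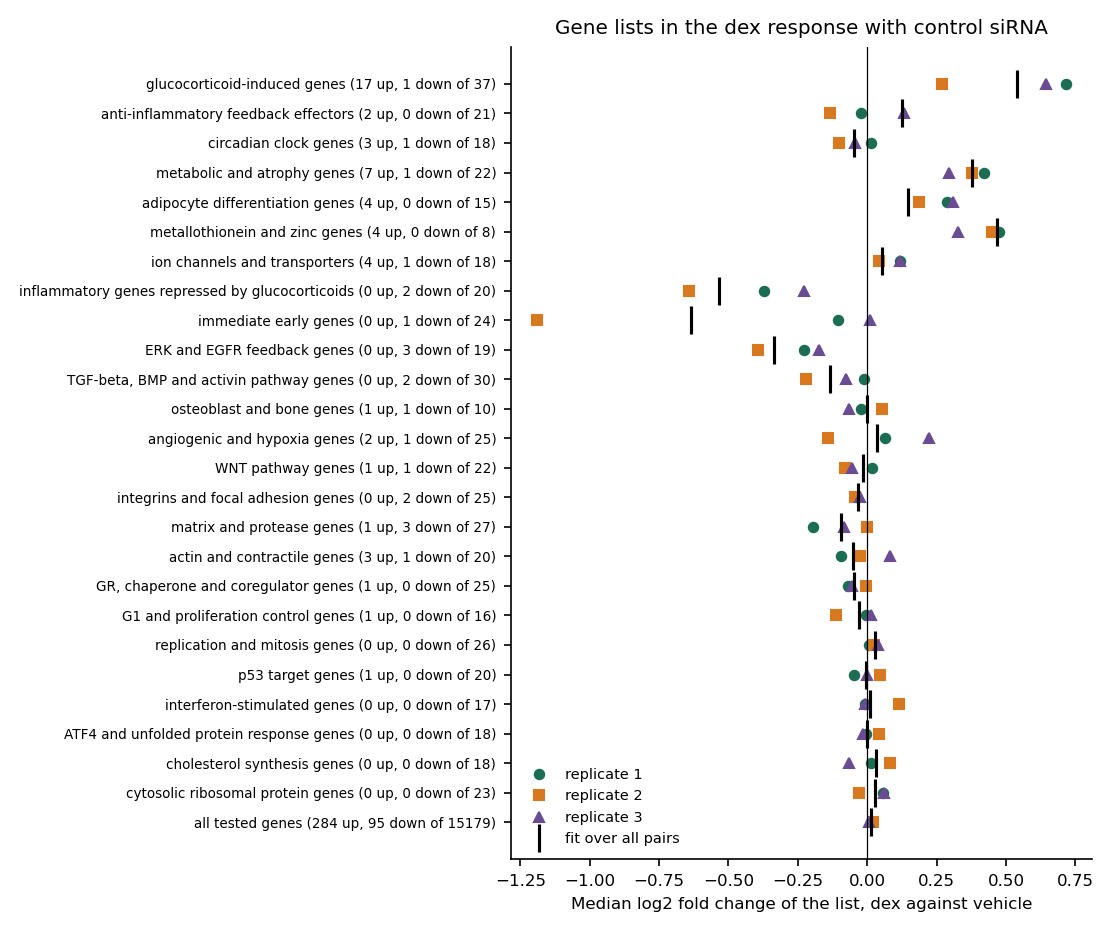
Each row is a gene list with its counts of risen, fallen and tested members. The horizontal axis is the list's median log2 fold change; coloured points give it for each replicate pair and the black bar in the fit over all pairs. The glucocorticoid-induced list lies at 0.54, all tested genes lie at 0.01, and the immediate early list lies at -1.19 in replicate 2 but at -0.10 and 0.01 in the others.

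Cytokine and signalling genes were among the falls. CSF2, which encodes the cytokine GM-CSF, had the largest fall among the called genes. It was at 9.42, 14.8 and 5.31 CPM with vehicle and 4.05, 6.68 and 2.32 CPM with dex, a fall in every pair by 1.18 ± 0.25 on the log2 scale (adjusted p = 0.0129). Since vehicle replicate 3 was below dex replicate 2 the groups overlapped, and the call was lost without any 1 pair (adjusted p = 0.122, 0.0969 and 0.0696). TRAF1, an adaptor of TNF receptors, went from 20.9, 41.6 and 23.7 CPM to 9.67, 19.8 and 13.3 CPM, with adjusted p values of 0.258, 0.251 and 0.126 without replicates 1, 2 and 3. TNFSF15, a TNF-family ligand gene, went from 10.5, 18 and 5.73 CPM to 6.47, 8.23 and 3.55 CPM, a fall by 0.86 ± 0.16 (adjusted p = 0.0045). Without replicate 2 its adjusted p was 0.11. PLAU, which encodes urokinase, fell by 0.66 ± 0.16, with an adjusted p of 0.128 without replicate 1 and 0.379 without replicate 2. CSF2 and PLAU were the 2 of 20 tested inflammatory genes that fell (0.626% of all genes fell), and 0 rose. The list's median was -0.53. The cytokine genes IL6 (-0.85, 95% interval -1.54 to -0.17) and CXCL8 (-1.43, interval -3.34 to 0.49) were not called (adjusted p = 0.24 and 0.597).

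The immediate early genes, which growth factors and stress switch on within minutes, moved mainly in 1 pair. Of 24 tested, 1 fell and 0 rose, beside 0.626% and 1.87% of all tested genes, with a list median of -0.63. The median was -0.10, -1.19 and 0.01 in pairs 1, 2 and 3, and -0.06 in the fit without replicate 2. NR4A3 was at 2.94, 128 and 2.68 CPM with vehicle and 2.84, 4.98 and 2.84 CPM with dex. EGR1 was at 86.2, 282 and 35.1 CPM with vehicle and 70.2, 67.1 and 39.0 CPM with dex, and JUNB at 124, 495 and 71.3 CPM and 106, 133 and 71.2 CPM. In each the vehicle library of replicate 2 was the high one, and none of these 3, named after their values were seen, was called (adjusted p = 0.461, 0.419 and 0.425). FOS (-0.02, interval -0.65 to 0.61) and MYC (0.04, interval -0.24 to 0.32) were not called either. The 1 call was FOSL1, which encodes an AP-1 subunit. It went from 51.0, 132 and 45.1 CPM to 29.9, 52.5 and 35.6 CPM (adjusted p = 0.0372), and its adjusted p was 0.191 without replicate 1 and 0.428 without replicate 2.

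The high vehicle level of these genes was not particular to the control siRNA library. In the vehicle libraries numbered 2, NR4A1 was at 678 CPM with siHic5siNS, 377 CPM with siCHD9siNS and 147 CPM with siCHD9siHic5, but at 20.2 CPM with siBRMsiNS and 20.7 CPM with siBRMsiHic5. The dex libraries numbered 2 were at 152, 44.0, 29.4, 23.8 and 31.9 CPM in the same order. Of the vehicle libraries numbered 1 and 3, the highest was siBRMsiNS replicate 1 at 121 CPM, with 33.0 CPM in its dex library. The labels do not state whether a number marks the same day in different conditions. Over all fallen genes, the vehicle level was highest in replicate 2 for 61 of 95 (64.2%), against 29.3% of all tested genes. Without the pair of replicate 2, 32 falls were called, and 17 of them are among the 95.

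**Figure D4:**
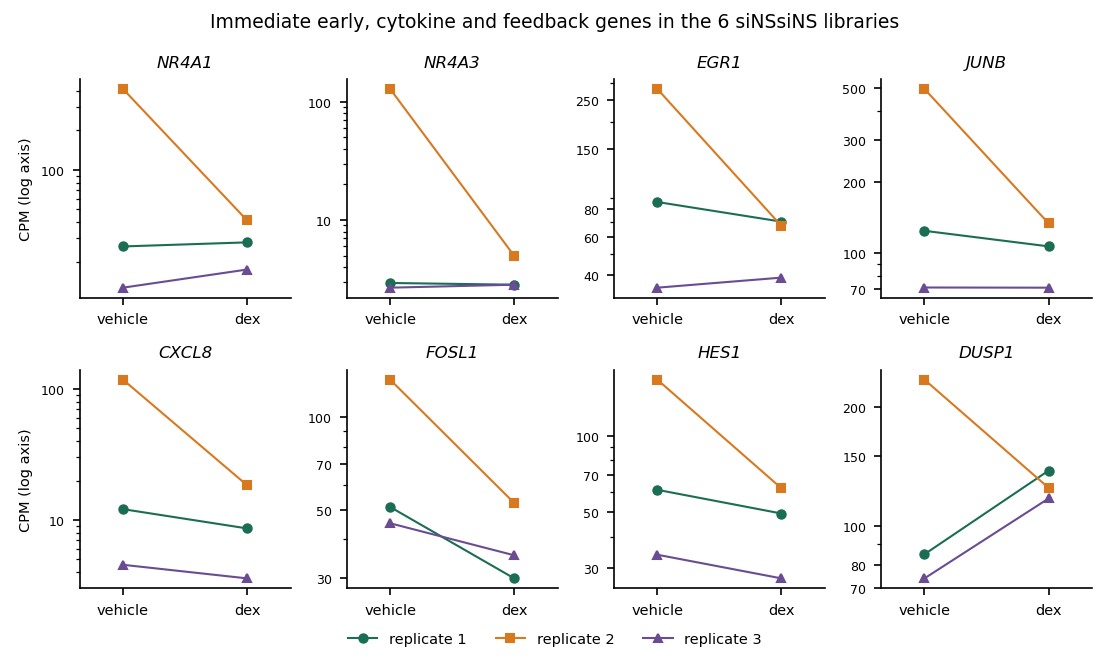
Each panel shows 1 gene in the 6 siNSsiNS libraries, with CPM on a log axis and a line joining the vehicle and dex library of 1 replicate. The vehicle library of replicate 2 is the highest of the 6 in all 8 panels, for example 415 CPM for NR4A1 against 12.6 and 26.1 CPM in the other vehicle libraries.

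Of 19 tested ERK and EGFR feedback genes 3 fell, beside 0.626% of all tested genes. In this list 0 rose, 16 did not pass the test and the median was -0.34. EPHA2, an ephrin receptor gene, went from 312, 420 and 241 CPM to 234, 279 and 199 CPM, a fall by 0.43 ± 0.08 (adjusted p = 0.0076). SPRED2 and SPRED3, inhibitors of the RAS to ERK pathway, fell by 0.34 ± 0.08 and 0.35 ± 0.09. EPHA2 was not called without replicate 1 (adjusted p = 0.0749) or 2 (0.13), and SPRED3 not without replicate 1 (0.222) or 2 (0.459). SPRED2 lost its call without any 1 pair (0.177, 0.169 and 0.0711). Of 30 tested genes of the TGF-β, BMP and activin pathways 2 fell, ID2 by 0.44 ± 0.10 and SMAD7, a feedback inhibitor, by 0.43 ± 0.10. ID2 was not called without any 1 pair (0.104, 0.195 and 0.0584), and SMAD7 not without replicate 1 (0.0786) or 2 (0.336). HES1, a repressor induced by Notch, went from 61.2, 166 and 34 CPM to 49.4, 62.1 and 27.4 CPM, a fall by 0.70 ± 0.16 with an adjusted p of 0.335 without replicate 2. IER5L (-0.67 ± 0.15) and IFFO2 (-0.85 ± 0.16) had adjusted p values of 0.324 and 0.108 without replicate 2.

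VEGFA, which encodes the vascular growth factor, went from 76.1, 88.0 and 72.5 CPM to 53.7, 51.3 and 61.8 CPM, a fall by 0.50 ± 0.10 (adjusted p = 0.0108). All dex libraries were below all vehicle libraries, and the call was lost without replicate 1 (adjusted p = 0.104) or 2 (adjusted p = 0.192). VEGFA was the 1 fall among 25 tested angiogenic and hypoxia genes, in which KDR and EDN3 rose. Over all tested genes, 0.626% fell and 1.87% rose. MYH9, which encodes the heavy chain of non-muscle myosin IIA, went from 838, 922 and 1081 CPM to 599, 617 and 967 CPM. It was lower in every pair, by 0.41 ± 0.06 on the log2 scale (adjusted p = 0.00099), although dex replicate 3 was above 2 of the vehicle libraries. It was the 1 fall among 20 tested actin and contractile genes, of which FAM107A (2.78 ± 0.33), PHACTR3 and CDC42EP3 (0.62 ± 0.12, adjusted p = 0.114 without replicate 1) rose. PKM, the pyruvate kinase gene, had a fall of 0.15 ± 0.04 from 3248, 3258 and 3568 CPM to 2850.2, 2889 and 3356 CPM. Its call was lost without any 1 pair (adjusted p = 0.331, 0.27 and 0.0619).

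Of 27 tested matrix and protease genes 1 rose and 3 fell, beside 1.87% and 0.626% of all tested genes. LOX, which encodes the collagen cross-linking enzyme lysyl oxidase, went from 37.3, 42.8 and 52.5 CPM to 52.8, 57.7 and 62.7 CPM, or 0.39 ± 0.06 (adjusted p = 0.00066). MMP2, a gelatinase gene, fell by 0.22 ± 0.04, TIMP3, an inhibitor of such proteases, by 0.30 ± 0.07, and ADAMTS1 by 0.74 ± 0.17. MMP2 had an adjusted p of 0.13 without replicate 1 and 0.0521 without replicate 3, and ADAMTS1 of 0.0694 without replicate 1 and 0.406 without replicate 2. TIMP3 lost its call without any 1 pair (0.138, 0.154 and 0.123). Of 25 tested integrin and focal adhesion genes PODXL (-0.51 ± 0.09) and ITGB3 (-0.61 ± 0.16) fell and 0 rose. PODXL had an adjusted p of 0.0587 without replicate 2, and ITGB3 of 0.324, 0.126 and 0.198 without replicates 1, 2 and 3. MIR221, the precursor gene of a microRNA, was counted at 1.69 to 2.63 CPM with vehicle and 1.00 to 1.21 CPM with dex. Its mature microRNA was not measured, and its adjusted p was 0.085 without replicate 2.

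The same dex contrast was then read in the 3 conditions with 1 targeting siRNA, whose libraries are separate from the siNSsiNS libraries. All conditions share 1 fit and 1 estimate of each gene's spread, so the calls are not independent between conditions. How far each siRNA lowered its target is not given here. Of the 284 risen genes, 204 (71.8%) were called higher with siHic5siNS, 222 (78.2%) with siCHD9siNS and 197 (69.4%) with siBRMsiNS. The shares of all tested genes called higher there were 4.36%, 11.1% and 2.38%. Of the 95 fallen genes, 67 (70.5%), 70 (73.7%) and 39 (41.1%) were called lower, beside 4.57%, 13% and 1.53% of all. The vehicle libraries numbered 2 of siHic5siNS and siCHD9siNS also had high NR4A1 (678 and 377 CPM), unlike that of siBRMsiNS (20.2 CPM). How far this shared state enters the overlap of the falls was not tested. Read the other way, the risen genes made up 30.8%, 13.2% and 54.4% of the genes called higher in those conditions, and the fallen genes 9.67%, 3.56% and 16.8% of those called lower. In all 3 conditions 145 risen and 25 fallen genes were called the same way, and 23 risen and 7 fallen genes were called in 0 of them. The direction was the same in all 3 for 265 of 284 risen and 89 of 95 fallen genes. FKBP5 rose by 1.31, 1.72 and 1.31 and SPINK13 by 6.59, 5.16 and 3.45 with siHic5siNS, siCHD9siNS and siBRMsiNS. MT1E rose by 1.18, 1.17 and 1.20 and AMIGO2 fell by 0.79, 0.62 and 0.53 on the log2 scale.

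**Figure D5:**
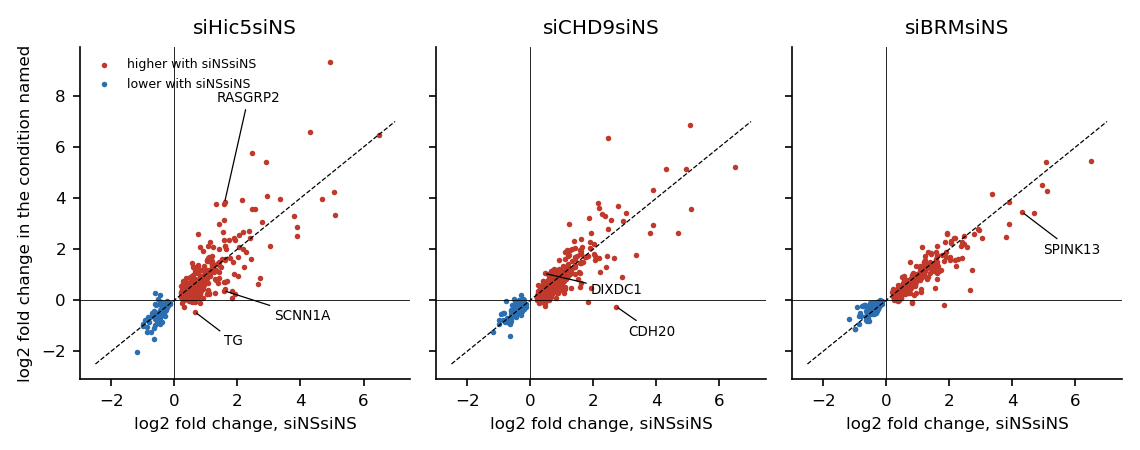
Each point is 1 of the 284 genes that rose (red) or 95 that fell (blue) with dex and siNSsiNS. The horizontal axis is the log2 fold change with siNSsiNS and the vertical axis that in the condition named above the panel; the dashed line marks equal changes. Most points lie in the quadrants of equal sign, and SCNN1A, TG and CDH20 lie far below the line in the panels where they are named.

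Differences between dex responses were tested as interaction contrasts, which reuse the siNSsiNS libraries. For siHic5siNS against siNSsiNS 28 genes were called (0.184% of those tested), 20 higher (0.132%) and 8 lower (0.0527%). Without siNSsiNS replicates 1, 2 and 3 the counts were 8, 7 and 9, and without the replicate block 0. SCNN1A rose by 1.57 with siNSsiNS and changed by 0.37 ± 0.12 with siHic5siNS, a difference of -1.20 ± 0.16 (adjusted p = 0.0035). RASGRP2, which encodes a guanine nucleotide exchange factor for RAP1, rose by 1.59 ± 0.24 with siNSsiNS and by 3.83 with siHic5siNS, a difference of 2.23 ± 0.40 (adjusted p = 0.0251, and 0.109, 0.143 and 0.0654 without siNSsiNS replicates 1, 2 and 3). SMIM3 (0.58 against 1.31) had a difference of 0.72 ± 0.09 (adjusted p = 0.0032). For siCHD9siNS against siNSsiNS 612 genes were called (4.03%), 331 higher (2.18%) and 281 lower (1.85%), but 0 without siNSsiNS replicate 1 and 11 without replicate 3. CDH20, a cadherin gene, was at 0.167, 0.167 and 0.141 CPM with vehicle and 1.06, 0.835 and 1.26 CPM with dex and siNSsiNS. Its change was 2.72 ± 0.36 with siNSsiNS and -0.25 with siCHD9siNS, a difference of -2.97 ± 0.48 (adjusted p = 0.0096, but 0.063 without replicate 1 and 0.0833 without replicate 3). For siBRMsiNS the edgeR test called 0 genes, with 614 (4.05%) at an unadjusted p under 0.05 and 1 called by DESeq2. FKBP5 and TSC22D3 were not called in the siHic5siNS difference (adjusted p = 0.775 and 0.226).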

How the data were processed

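Total RNA from 36 cultures of U2OS-GRα cells was sequenced, 3 in each of 12 groups. Per the submitters' processing notes, reads were mapped to GRCh38 (hg38) with TopHat2 2.1.1, and edgeR was used. For the read counting, the counter, annotation and strand setting are not given in the sources used. The authors deposited a table of read counts for 15186 genes in all 36 libraries; its name speaks of normalised CPM, but the values are whole numbers with unequal totals. Of its genes 15116 (99.5%) matched RefSeq by Entrez identifier; 30 had no symbol, of which 1 was filled in. The table had 0 columns of other samples.

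Counts were fitted with edgeR 4.0.16 (R 4.3.3): upper-quartile factors, glmQLFit over all 36 libraries with 18 pair terms and 6 dex terms (12 residual degrees of freedom), glmQLFTest, and Benjamini-Hochberg adjustment over genes with a scaled CPM above 1 in at least 3 libraries. Sharing 1 fit lets the other libraries set part of the spread. DESeq2 1.42.0 and limma 3.58.1 on log2(CPM + 0.5), other factors, filters and thresholds, and leaving out each pair were alternatives. The script was tested on simulated data.

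Pairing comes from the replicate numbers and was checked on deviations from group means: same-numbered siNSsiNS libraries correlated at 0.541, 0.458 and 0.767, and over all 18 pairs at 0.458 to 0.922, with every library closest to its own number. Whether replicates were separate cultures is stated only as biological replicates on different days. No 2 libraries of a siNSsiNS group were copies (lowest chi-square per degree of freedom 9.41).

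Named genes are the siRNA targets and GR; the 15 largest rises and falls among calls that averaged at least 1 CPM and had 1 direction in all pairs; the 6 rises and 6 falls with the largest CPM difference among the others; up to 4 called genes per list and up to 4 per direction and difference; and FKBP5, TSC22D3, PER1, DUSP1, SGK1, IL6, CXCL8, FOS and MYC. The members, the rule and the 30 gene lists were chosen with earlier results of these data known. Genes with only a numbered locus name were counted, not named, apart from a neighbour of FKBP5.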

Additional observations from a re-analysis of the deposited data

Results flagged for a closer look

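Dex responses differed from those with siNSsiNS, by the interaction test, in 16 named genes. All of these genes were also called in the dex response with siNSsiNS, and both comparisons use those 6 libraries. Against siHic5siNS the difference in log2 fold change (siHic5siNS minus siNSsiNS) was positive for RASGRP2 (2.23), SMIM3 (0.72), KIF13B, a kinesin gene (0.55), and PYGB, the brain glycogen phosphorylase gene (0.48). It was negative for SCNN1A (-1.20), TG, the thyroglobulin gene (-1.11), and TLR4, a receptor for bacterial lipopolysaccharide (-0.58). TG was at 1.13 to 1.73 CPM with vehicle and 2.00 to 2.17 CPM with dex and siNSsiNS, and it overlaps SLA. With siHic5siNS TG changed by -0.46 (adjusted p = 0.0161) and TLR4 by -0.27 (adjusted p = 0.0476), the opposite direction to siNSsiNS.

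Against siCHD9siNS the difference was positive for DIXDC1 (0.60), MACF1, a linker of actin and microtubules (0.50), SERTAD4 (0.43), MYH9 (0.35) and EPB41L2 (0.28). It was negative for CDH20 (-2.97), PIGP (-0.67), NOL3 (-0.46) and TEKT4P2 (-0.40), a pseudogene with close copies. MACF1 fell by 0.30 on the log2 scale with siNSsiNS and changed by 0.20 with siCHD9siNS (adjusted p = 0.0391). Leaving out siNSsiNS replicate 1 left 0 genes called in this difference and leaving out replicate 3 left 11, of 612 with all 3 pairs. In the siHic5siNS difference 28 genes were called with all 3 pairs and 8, 7 and 9 without replicates 1, 2 and 3.

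Several of these genes did not keep their own siNSsiNS call. MACF1 (adjusted p = 0.237, 0.108 and 0.0952 without replicates 1, 2 and 3), PIGP (0.234, 0.102 and 0.233), NOL3 (0.104, 0.0531 and 0.0676) and TEKT4P2 (0.30, 0.297 and 0.0928) lost it in each case. PYGB lost it without replicate 2 (0.0537). TG lost it without replicate 1 (0.279) or 3 (0.219), TLR4 without replicate 2 (0.496) or 3 (0.17), and DIXDC1 (0.11 and 0.244) and EPB41L2 (0.215 and 0.168) without replicate 1 or 2. With TMM factors TLR4 (0.0708) and TEKT4P2 (0.0685) were not called, and with DESeq2 TG (0.134), PIGP (0.224) and TEKT4P2 (0.0684) were not. SMIM3 and SCNN1A kept the call of the difference without any 1 siNSsiNS pair (highest adjusted p 0.0278 and 0.0288). RASGRP2 and KIF13B (siHic5siNS) and SERTAD4, EPB41L2 and TEKT4P2 (siCHD9siNS) lost it in each case. TG (0.146 and 0.141) and PYGB (0.0749 and 0.0684) lost it without siNSsiNS replicate 1 or 3. The same held for CDH20, MACF1, PIGP, NOL3 and DIXDC1 in the siCHD9siNS difference. TLR4 lost it without replicate 2 (0.305) or 3 (0.141), and MYH9 without replicate 1 (0.158) or 2 (0.104).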

How the results depend on the processing

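All 379 called genes kept their sign under every alternative that used all 36 libraries and tested them, and no named gene with a call reversed. Sign changes of named genes without a call were not recorded. TMM factors, library totals, limma-trend, no filter, a CPM above 10, the 6 siNSsiNS libraries alone with the replicate block, and the RNA28S5 count left out (added after seeing the data) kept all counts of the dex response within 1.5 times. Similar counts did not mean the same genes. The 6 libraries alone with the block called 306 genes, and 230 of them were among the 379. These were 187 of the 284 rises and 43 of the 95 falls. Without the replicate block 52 genes were called, 52 higher and 0 lower, 38, 38 and 43 of them also called with siHic5siNS, siCHD9siNS and siBRMsiNS, and the differences from siHic5siNS and siCHD9siNS fell to 0 and 1 calls. In the 6 libraries without the block it was 36, 36 and 0. DESeq2 called 169 lower and, in the differences, 61 (siHic5siNS) and 1 (siBRMsiNS). At an adjusted p under 0.01 there were 181 calls, 159 higher and 22 lower, shared with siHic5siNS, siCHD9siNS and siBRMsiNS in 128, 143 and 127 cases, and differences of 10 (siHic5siNS) and 18 (siCHD9siNS). With a fold change of at least 1.5 there were 190, 167 and 23, shared in 131, 142 and 133 cases, and a difference of 111 (siCHD9siNS). Leaving out each pair gave 146 to 231 calls, 128 to 184 higher and 18 to 56 lower, shared with siHic5siNS in 119 to 181, siCHD9siNS in 130 to 189 and siBRMsiNS in 121 to 184 cases, and differences of 7 to 9 (siHic5siNS), 0 to 587 (siCHD9siNS) and 0 to 0 (siBRMsiNS). The cause of these changes was not tested. In the fits that leave out a pair, fewer libraries and the loss of that pair cannot be told apart. The 99 named genes include TGFB1I1, CHD9, SMARCA2, NR3C1, DUSP1, SGK1, IL6, CXCL8, FOS and MYC, which had no call to lose. Of the others, 69 lost their call without the block, and 44, 38 and 30 without replicates 1, 2 and 3. Depth limited genes under 1 CPM, whose folds rest on few counts.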

Other observations

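IP6K3, which encodes an inositol hexakisphosphate kinase, was also among the risen genes. It was at 4.61, 4.17 and 5.62 CPM with vehicle and 16.2, 14.8 and 17.5 CPM with dex, or 1.76 ± 0.12 (edgeR adjusted p = 1.4e-07). IP6K3 was also called without any 1 pair. TMEM100, a transmembrane protein gene, went from 6.15, 10.04 and 5.42 CPM to 19.95, 16.8 and 13.4 CPM, or 1.24 ± 0.20 (edgeR adjusted p = 0.0015), but its adjusted p was 0.0518 without replicate 1. FAM107A, an actin-associated gene, went from 0.802, 1.77 and 0.819 CPM to 8.16, 5.94 and 8.89 CPM. DNER, a Notch ligand gene, rose by 2.36 ± 0.24 and DRD1, a dopamine receptor gene, fell by 0.99 ± 0.20 on the log2 scale. DRD1 had an adjusted p of 0.128 without replicate 1 and 0.0828 without replicate 3. IP6K3 and TMEM100 were chosen after their values were seen.

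JUN, which encodes an AP-1 subunit, was at 105, 159 and 116 CPM with vehicle and 70.1, 82.2 and 90.7 CPM with dex. The groups did not overlap, and the edgeR adjusted p was 0.0637. IL11, an interleukin gene, was at 14.7, 41.6 and 14.3 CPM with vehicle and 10.8, 13.5 and 9.68 CPM with dex, also with no overlap (edgeR adjusted p = 0.242). Both were chosen after their values were seen.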
